A study of Homo sapiens with 9 samples.

Results

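The genes described here are those of WNT and R-spondin signaling that the array carries by name: the WNT ligands, the Frizzled receptors, the LRP5 and LRP6 co-receptors, the R-spondins and their LGR receptors, the Dickkopf and SFRP antagonists, the Axins and the TCF and LEF transcription factors. They were chosen by gene symbol alone, over gene probes whose accession is a RefSeq messenger RNA of such a gene. The rule uses no measured value, but it was set with earlier results of these data known. The rule found 62 probes for 52 genes, of 42405 gene probes and 35010 genes or other transcripts on the array. Of the 52 genes, 30 were detected well above background in the whole of 1 group or more (3 arrays of 3) and were tested, among 21832 genes tested in all.

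WNT ligands are secreted proteins that bind a Frizzled receptor together with LRP5 or LRP6, and in the canonical branch this stops a cytoplasmic complex built on Axin and APC from marking β-catenin for degradation. β-catenin then enters the nucleus and activates genes bound by TCF and LEF factors. R-spondins bind LGR receptors and keep the ubiquitin ligases RNF43 and ZNRF3 from removing Frizzled receptors from the cell surface, whereas Dickkopf and SFRP proteins act as secreted antagonists. WNT5A and WNT11 are best known for branches that do not use β-catenin.

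A2780 is an established human ovarian carcinoma cell line, and DIG-MSK is an analogue of the antibiotic mithramycin A that binds to C/G-rich sequences in the minor groove of DNA. The question was how gene expression in these cells changes with the drug. Cells were left untreated, or were incubated for 24 h with 8 nM or with 80 nM DIG-MSK, and the methods describe 3 independent biological replicates per group, so that 9 arrays of a single color were hybridized. The labels name no vehicle for the untreated cells, and all groups were the same line in the same medium.

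Levels are given as the log2 of the background-corrected spot intensity relative to the 75th percentile of the same array, so that 0 is the 75th percentile and -1 is a 2-fold lower intensity. They compare arrays for 1 probe and do not rank different genes. The 75th percentile lay between 831.7 and 1170 intensity units, between 24814 and 27151 probes per array were well above background, and replicate arrays correlated with r between 0.9891 and 0.9957. The untreated and 8 nM arrays were on slide 1 and the 80 nM arrays on slide 2. Negative control spots had a mean net signal of 31.14 to 38.59 on the first of these slides and of 22.09 to 22.68 on the other, so the effect of 80 nM and that of the slide cannot be told apart. Of 7 ovarian and epithelial markers 4 were measured, the keratins KRT8, KRT18 and KRT19 and the adhesion molecule EPCAM. The ovarian markers PAX8, WT1 and MUC16 did not pass the filter. PAX8 was above background on 3 of 9 arrays, and WT1 and MUC16 were above background on none. Of 9 markers of leucocytes, endothelium and stroma, 5 passed the filter (PTPRC, CD14, CDH5, DCN and PDGFRB), and CD3E, PECAM1, VWF and LUM did not. EPCAM was up-regulated at 8 nM (0.90 ± 0.22, SE; limma adjusted p = 0.029, and 0.11 when scaled to the spike-in controls) and down-regulated at 80 nM (-0.93 ± 0.22; limma adjusted p = 0.0065, though -0.27 with normexp), and the stromal gene DCN was down-regulated at 80 nM (-1.39 ± 0.23; limma adjusted p = 0.0011). The other stromal gene measured, PDGFRB, was not called, with 0.58 ± 0.13 at 8 nM (limma adjusted p = 0.02) and 0.00 ± 0.13 at 80 nM. PTPRC was down-regulated at 8 nM only without adjustment (-0.73 ± 0.26; limma adjusted p = 0.096). The summed intensity of the 4 epithelial markers, as a multiple of the 75th percentile, was 3.17 to 3.28 in untreated cells, 3.41 to 3.64 at 8 nM and 3.27 to 3.60 at 80 nM. That of the 2 stromal ones was 0.278 to 0.429, 0.336 to 0.452 and 0.163 to 0.192. The epithelial sum came mostly from KRT8 and KRT18 (mean untreated levels 0.19 and 0.95) and little from EPCAM and KRT19 (-3.82 and -3.60). The sums stayed between 0.0885 and 0.152 for 2 leucocyte markers and between 0.0877 and 0.148 for the endothelial CDH5. The part of these shifts in the members' changes was not tested.

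Following the methods of the study, a gene is called up-regulated at a fold of at least 1.5, or down-regulated at a fold of at most 0.67, with an unadjusted p under 0.05 from limma. At 8 nM, 1 of the 30 genes was up-regulated, DKK3, and none was down-regulated by the probe that stands for it, while 7.09% of all genes tested were called (4.25% up and 2.84% down). With the adjusted p in place of the unadjusted one, DKK3 was again the 1 member called, and 5.13% of all genes were (3.71% up and 1.42% down). By limma, 13 of the 30 had an unadjusted p under 0.05, 5 of them higher and 8 lower, against 30.8% of all genes, and 7 had an adjusted p under 0.05, against 13.6% of all genes. These 7 became 2 without untreated replicate 1, 3 without untreated replicate 2, 1 without untreated replicate 3, 2 without 8 nM replicate 3 and 0 with scaling to the spike-in controls. At 80 nM, 3 were up-regulated (FZD1, LGR4 and WNT3A) and 13 down-regulated (AXIN1, DKK2, DKK3, FZD3, FZD5, FZD6, FZD8, RSPO2, TCF7L1, TCF7L2, WNT11, WNT5A and WNT5B). Of all genes tested, 35.1% were called at 80 nM, 18.8% up and 16.3% down. Each of these members also had a Benjamini-Hochberg adjusted p under 0.05, and by the adjusted rule 34.3% of all genes were called (18.4% up and 15.9% down). Between the concentrations, 2 genes were higher and 13 lower at 80 nM than at 8 nM, against 19.5% and 14.2% of all genes (33.6% together). By the adjusted rule the members' numbers were again 2 and 13, against 18.9% and 13.9% (32.8% together). Scaled to the spike-in controls, for which the median over all genes tested was -0.20 at 80 nM in place of 0.08, 1 member (FZD1) was up-regulated and 16 were down-regulated at 80 nM, against 10.2% and 26.2% of all genes. With normexp background correction these numbers were 1 and 10, against 10.6% and 11% of all genes. The 3 comparisons share arrays, so that their calls are not independent of each other.

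Several of the down-regulated genes were measured well above background only without the high concentration. They entered the test through the groups in which they were high, and their number is therefore no measure of direction. Among the 23 genes that were well above background on all 9 arrays, 3 rose and 6 fell past the limits at 80 nM, and of all 18836 genes measured on all arrays 17.2% were higher and 13.8% lower by the same rule. On the log2 scale these 23 genes had a median of -0.14 at 80 nM, and the 21832 genes tested had one of 0.08. That second set also holds genes not measured on every array, so the medians are not of like sets. In RNA of a whole culture, fewer cells that express a gene and less RNA per cell cannot be told apart.

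**Figure D1:**
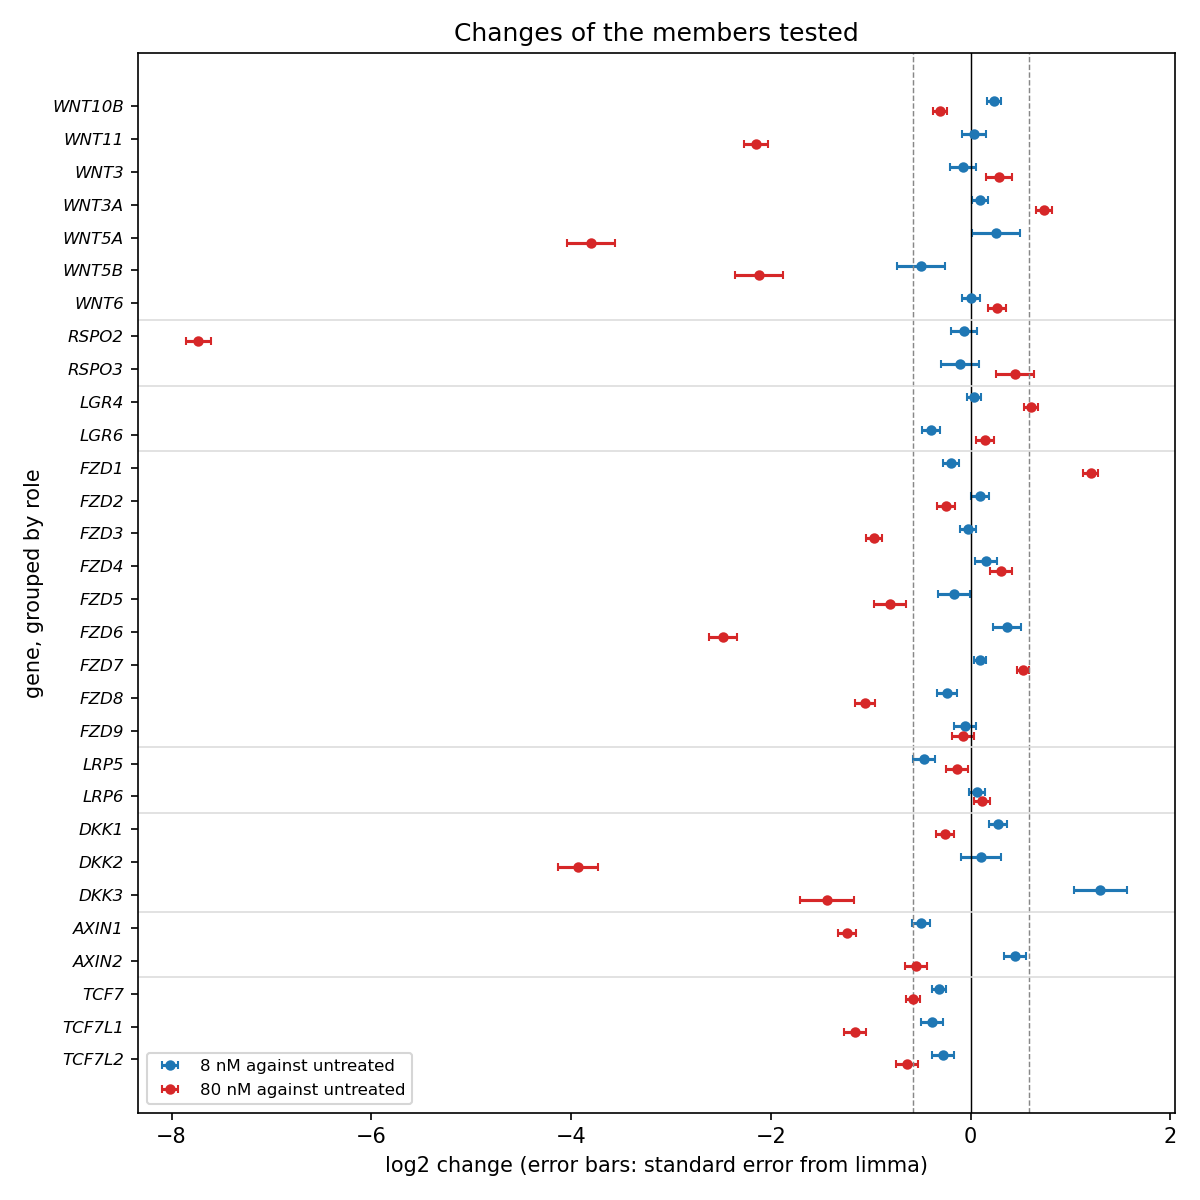
Log2 change (x axis) of each of the 30 genes tested (y axis, grouped by role), with bars for the standard error from limma; blue points are 8 nM and red points 80 nM, both against untreated cells with 3 arrays per group, and dashed lines mark the fold limits. Most blue points lie between the dashed lines, DKK3 at 1.30 being the exception, while the red points run from -7.73 for RSPO2 to 1.20 for FZD1. Red points of DKK2, DKK3, RSPO2, WNT11, WNT5A and WNT5B are fitted values of probes that were not well above background at 80 nM.

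Because the drug binds C/G-rich DNA, the sequences in front of the members' start sites were read from RefSeq (assembly GRCh38.p14). A sequence was at hand for 36 of the 52 genes, with 44 start sites in all, and the 250 bases before each start were searched for the GC box GGGCGG on either strand (CCGCCC on the strand read), overlapping matches included. A GC box was present at 31 of the 44 start sites (70.5%), and at 42.6% of all 35116 start sites. The median share of G and C was 66.6% for the members and 58.0% for all. Within the members, 7 of 11 start sites of genes down-regulated at 80 nM (63.6%) had a GC box, 2 of 3 of those up-regulated (66.7%), 8 of 12 of those tested and not called (66.7%) and 14 of 18 of those not tested (77.8%). Counted by gene, with a GC box at any start, the numbers were 7 of 7, 2 of 3, 8 of 9 and 14 of 17. Only 7 of the 13 down-regulated genes had a sequence here, with none for RSPO2, DKK2, DKK3, WNT11, FZD3 and FZD6, so that the groups of genes are not compared on this measure.

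The sequences below, all given 5′ to 3′ on the strand of the gene with GC boxes in capitals, show this variety. They are those of AXIN1, which had the most GC boxes among the down-regulated genes (8), of FZD1 and LGR4, which rose at 80 nM with 1 and 0 boxes, and of TCF7L1 and WNT5A, which fell. They were selected after the values had been seen, and they do not show how box numbers go with direction. WNT3A, up-regulated by the probe that stood for it, had 5 boxes (86.0% G and C). FZD4 and WNT6, which were not called, had 6 each. A match describes these letters and is not a measured binding site.
AXIN1 (chr16:352724-352973, minus strand, 77.6% G and C): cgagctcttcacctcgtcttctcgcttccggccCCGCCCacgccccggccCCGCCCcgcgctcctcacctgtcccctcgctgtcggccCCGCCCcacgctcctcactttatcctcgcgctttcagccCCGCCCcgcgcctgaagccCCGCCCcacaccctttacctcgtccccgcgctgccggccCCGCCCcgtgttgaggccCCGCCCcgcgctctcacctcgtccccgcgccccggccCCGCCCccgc
TCF7L1 (chr2:85133142-85133391, plus strand, 72.0% G and C): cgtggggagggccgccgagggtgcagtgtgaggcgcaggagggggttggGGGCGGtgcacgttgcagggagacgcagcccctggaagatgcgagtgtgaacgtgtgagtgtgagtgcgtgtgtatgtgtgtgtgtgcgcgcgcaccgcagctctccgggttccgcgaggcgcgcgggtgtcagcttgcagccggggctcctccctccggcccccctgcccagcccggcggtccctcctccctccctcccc
WNT5A, first start (chr3:55487307-55487556, minus strand, 52.8% G and C): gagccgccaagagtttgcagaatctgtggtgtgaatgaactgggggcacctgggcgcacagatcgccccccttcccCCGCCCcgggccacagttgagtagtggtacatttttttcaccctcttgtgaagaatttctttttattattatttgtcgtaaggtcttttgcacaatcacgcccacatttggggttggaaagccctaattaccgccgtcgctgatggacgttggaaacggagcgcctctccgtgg
WNT5A, second start (chr3:55481399-55481648, minus strand, 64.4% G and C): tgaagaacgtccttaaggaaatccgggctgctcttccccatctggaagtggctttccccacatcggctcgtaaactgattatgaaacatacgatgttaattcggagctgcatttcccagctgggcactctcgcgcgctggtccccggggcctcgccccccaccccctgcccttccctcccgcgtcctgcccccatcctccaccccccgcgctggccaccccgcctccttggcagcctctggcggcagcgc
FZD1 (chr7:91264183-91264432, plus strand, 65.2% G and C): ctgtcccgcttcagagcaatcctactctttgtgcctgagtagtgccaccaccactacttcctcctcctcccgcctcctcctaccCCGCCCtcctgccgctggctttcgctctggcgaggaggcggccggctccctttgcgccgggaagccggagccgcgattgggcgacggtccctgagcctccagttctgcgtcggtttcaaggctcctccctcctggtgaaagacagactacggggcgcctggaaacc
LGR4 (chr11:27472791-27473040, minus strand, 62.0% G and C): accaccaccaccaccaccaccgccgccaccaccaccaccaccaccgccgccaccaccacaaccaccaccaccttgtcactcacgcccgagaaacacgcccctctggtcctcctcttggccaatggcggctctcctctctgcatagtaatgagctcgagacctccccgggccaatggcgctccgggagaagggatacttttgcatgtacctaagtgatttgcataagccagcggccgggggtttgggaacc

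Of 19 WNT ligand genes on the array, 7 were tested and 12 were not: WNT1, WNT2, WNT2B, WNT4, WNT7A, WNT7B, WNT8A, WNT8B, WNT9A, WNT9B, WNT10A and WNT16 did not reach the filter. Of the 7, WNT5A, WNT5B and WNT11 were down-regulated at 80 nM and WNT3A was up-regulated by 1 of its probes. None was called at 8 nM.

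The level of WNT5A, a ligand of the branches without β-catenin that guides cell movement, was -4.85, -3.95 and -4.15 in untreated cells. With 8 nM DIG-MSK it was -4.29, -3.81 and -4.09, and with 80 nM it was -8.20, -8.27 and -7.88. The 8 nM arrays overlapped the untreated ones, and all 3 arrays at 80 nM were lower than any other and not well above background. The lowest signal that counted as well above background gives WNT5A an intensity at least 3.14-fold lower at 80 nM than in untreated cells (limma adjusted p = 4.5e-06). In this and the other bounds, the mean of the brighter group is set against the higher of that lowest signal and the probe's own on each array of the dimmer group. The bounds hold for the background-corrected intensity. An adjusted p printed with a bound is that of the fitted change (for WNT5A -3.80), and the bound itself was not tested. Normexp correction with its offset, which adds a constant to every intensity, and the deposited log2 values, which followed the signal without background subtraction, give smaller changes for dim probes. For WNT5A they gave -0.99 and -1.66 at 80 nM.

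WNT5B, a close relative of WNT5A, had levels of -4.12, -4.48 and -4.86 in untreated cells, -4.74, -4.91 and -5.31 at 8 nM and -7.00, -6.46 and -6.35 at 80 nM. It was well above background on all 3 untreated arrays, on 2 of 3 at 8 nM and on none at 80 nM, where its level was at least 2.8-fold lower than in untreated cells (limma adjusted p = 0.00014). The change at 8 nM was -0.50 ± 0.24 (SE), with overlapping arrays, and did not pass the test. At 80 nM WNT5B changed by -0.42 with normexp, which is inside the fold limit, and by -0.75 in the deposited log2 values. WNT11, which acts in cell movements of the embryo, had levels of -3.85, -3.49 and -3.56 in untreated cells, -3.74, -3.44 and -3.61 at 8 nM and -5.74, -5.75 and -5.85 at 80 nM. Its arrays at 80 nM stood close together just at the limit of detection, at least 4.26-fold below untreated cells (limma adjusted p = 2e-06), with changes of -0.70 by normexp and -1.06 in the deposited log2 values.

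WNT3A, the ligand most used to activate β-catenin signaling in culture, was measured by 2 probes that moved in opposite directions. The probe that stood for the gene read -2.85, -2.82 and -2.85 in untreated cells, -2.66, -2.87 and -2.72 at 8 nM and -2.04, -2.09 and -2.19 at 80 nM, a rise of 0.73 ± 0.08 (SE; limma adjusted p = 9.8e-05). It had the higher mean over all 9 arrays, but it was the dimmer of the 2 probes in untreated and 8 nM cells. Which probe stood for WNT3A, and so its call, therefore depended on the 80 nM arrays. The other probe, which names the same transcript, read -2.67, -2.40 and -2.64 in untreated cells, -2.40, -1.86 and -2.09 at 8 nM and -4.57, -4.41 and -4.75 at 80 nM. That is a change of -2.01 ± 0.15 at 80 nM (limma adjusted p = 1.4e-05 in a fit of all 26457 probes), with all 3 arrays below every other array. Both probes were well above background on all 9 arrays, and the mean of both gave -0.64 at 80 nM, so the array gives no single direction for WNT3A. The remaining ligands changed less: at 80 nM WNT10B was lower by a log2 change of -0.31 ± 0.07 (limma adjusted p = 0.0044), WNT6 stood at 0.26 ± 0.09 (-0.02 when scaled to the spike-in controls) and WNT3 at 0.28 ± 0.13, all inside the fold limits.

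The R-spondins held the largest change among the members. RSPO2, a secreted R-spondin that strengthens WNT signals, had levels of -0.14, -0.05 and -0.20 in untreated cells and of -0.41, -0.06 and -0.14 at 8 nM. At 80 nM it was -7.96, -8.01 and -7.60. RSPO2 thus lay near the 75th percentile of the arrays without drug and with 8 nM, where the groups overlapped, and fell below the limit of background at 80 nM on every array. The intensity was at least 57.2-fold lower at 80 nM than in untreated cells (limma adjusted p = 5.4e-09) and at least 54.4-fold lower than at 8 nM (limma adjusted p = 6.3e-09), while the change at 8 nM was -0.07 ± 0.13 (SE; 95% interval -0.38 to 0.23). With normexp the change of RSPO2 at 80 nM was -3.68, and in the deposited log2 values -4.65. RSPO3, the other R-spondin measured, stood at -3.69 ± 0.33 (SD, n = 3) at 80 nM and at -4.13 ± 0.11 in untreated cells, a change of 0.44 ± 0.19 (SE) that did not pass adjustment (limma adjusted p = 0.077). A second RSPO3 probe and the probes of RSPO1 and RSPO4 were not above background.

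LGR4, a receptor of the R-spondins, was up-regulated at 80 nM. Its levels were 1.92, 2.08 and 1.97 in untreated cells, 1.94, 2.07 and 2.06 at 8 nM and 2.61, 2.57 and 2.60 at 80 nM. The 80 nM arrays were the highest of all, and the rise was 0.60 ± 0.07 (SE; 1.52-fold; limma adjusted p = 0.00018), just past the fold limit. Scaled to the spike-in controls the change of LGR4 was 0.32 (limma adjusted p = 0.31), and with normexp it was 0.56, under the fold limit. LGR6, the related receptor, changed by -0.40 ± 0.09 at 8 nM (limma adjusted p = 0.027, and 0.13 with the replicate number as a block in a fit of the untreated and 8 nM arrays) and by 0.14 ± 0.09 at 80 nM (-0.14 when scaled to the spike-in controls). LGR5, which marks stem cells in several epithelia, was not above background on any array.

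Of 10 Frizzled genes, 9 were measured and FZD10 was not. At 80 nM FZD1 was up-regulated, and FZD3, FZD5, FZD6 and FZD8 were down-regulated. At 8 nM none of them was called, the changes running from -0.24 for FZD8 to 0.36 for FZD6.

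FZD1 read -1.62, -1.76 and -1.82 in untreated cells, -1.85, -1.95 and -1.99 at 8 nM and -0.48, -0.62 and -0.49 at 80 nM. It was highest on the 3 arrays at 80 nM, by 1.20 ± 0.08 over untreated cells (SE; 2.3-fold; limma adjusted p = 8.1e-06) and by 1.40 ± 0.08 over 8 nM cells. FZD7, a receptor often described in ovarian carcinoma, had levels of 0.98, 0.93 and 1.00 at 80 nM and of 0.39, 0.43 and 0.52 in untreated cells. Its change of 0.52 ± 0.06 passed adjustment (limma adjusted p = 2e-04) and stayed under the fold limit at 1.44-fold, but did not pass when scaled to the spike-in controls (0.24, limma adjusted p = 0.44).

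FZD3, a receptor in planar cell polarity and axon guidance, read -0.80, -0.69 and -0.66 in untreated cells, -0.83, -0.71 and -0.69 at 8 nM and -1.69, -1.76 and -1.61 at 80 nM. It was lower on every array at 80 nM, by a log2 change of -0.97 ± 0.08 (SE; limma adjusted p = 1.8e-05), with the 8 nM and untreated arrays overlapping. FZD6, which also takes part in planar cell polarity, read -3.56, -3.15 and -3.16 in untreated cells, -2.90, -3.0 and -2.89 at 8 nM and -5.59, -5.71 and -6.02 at 80 nM. Its fall of -2.48 ± 0.14 (limma adjusted p = 3e-06) ended at the limit of detection, with 2 of 3 arrays well above background, and was -0.83 with normexp and -1.23 in the deposited log2 values. The 8 nM arrays of FZD6 were all above the untreated ones, but the change of 0.36 ± 0.14 did not pass adjustment (limma adjusted p = 0.13).

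FZD5 read -0.78, -1.24 and -1.25 in untreated cells, -1.05, -1.51 and -1.21 at 8 nM and -1.74, -2.04 and -1.91 at 80 nM. FZD8 read -0.69, -0.88 and -0.87 in untreated cells, -0.93, -0.98 and -1.24 at 8 nM and -1.80, -1.94 and -1.89 at 80 nM. Both receptors were lowest on the 3 arrays at 80 nM, FZD5 by a log2 change of -0.81 ± 0.16 (limma adjusted p = 0.0032) and FZD8 by -1.06 ± 0.10 (limma adjusted p = 5.1e-05). For FZD2, FZD4 and FZD9 the changes at 80 nM were -0.25 ± 0.09, 0.30 ± 0.11 and -0.08 ± 0.11. The co-receptors LRP5 and LRP6 were measured on every array and not called in any comparison. LRP6 changed by 0.06 ± 0.08 at 8 nM (95% interval -0.13 to 0.25) and by 0.11 ± 0.08 at 80 nM (95% interval -0.07 to 0.30; -0.17 when scaled to the spike-in controls). LRP5 changed by -0.47 ± 0.11 at 8 nM (limma adjusted p = 0.027, and 0.097 with the replicate block in the fit of the untreated and 8 nM arrays) and by -0.14 ± 0.11 at 80 nM.

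**Figure D2:**
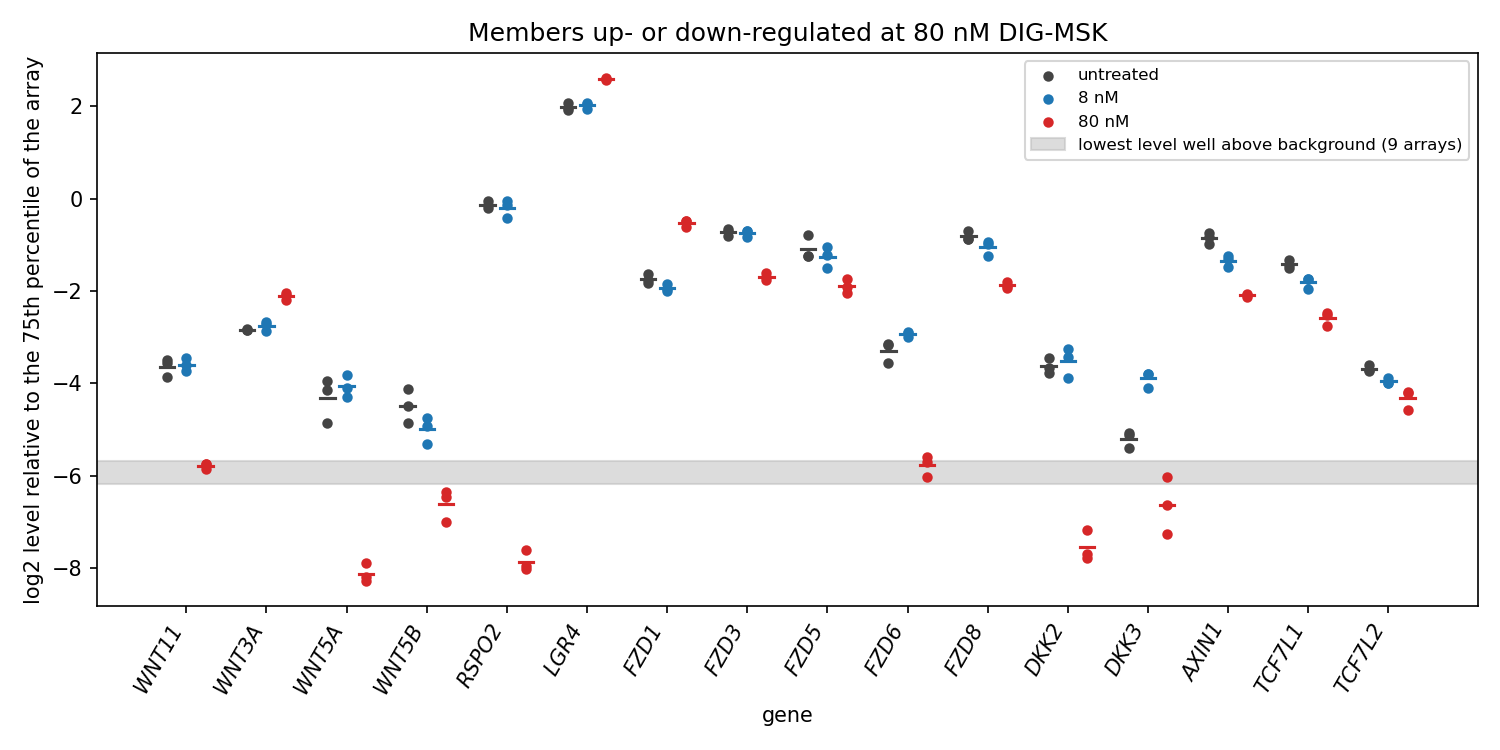
Level on each array (y axis, log2 intensity relative to the 75th percentile of the array) of the 16 members called at 80 nM (x axis, ordered by role); gray points are untreated, blue points 8 nM and red points 80 nM, 3 arrays each, with a bar at the mean, and the gray band spans the lowest level well above background on the 9 arrays (-6.18 to -5.68). The red points of RSPO2 lie between -8.01 and -7.60 while its other points lie between -0.41 and -0.05, those of WNT5A, WNT5B and DKK2 lie below the band, and only for WNT3A, LGR4 and FZD1 are the red points the highest; levels of different genes are not comparable.

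Among the antagonists that the rule names, only Dickkopf genes were tested, since SFRP1, SFRP2, SFRP4 and SFRP5 did not reach the filter. The secreted regulators FRZB and WIF1, which lie outside the rule, were tested and are given further below. DKK1, which blocks LRP5 and LRP6, stood at 2.27 ± 0.06 (SD, n = 3) without the drug, 2.55 ± 0.15 with 8 nM and 2.01 ± 0.09 with 80 nM. Its changes of 0.27 ± 0.09 (SE) at 8 nM (limma adjusted p = 0.088) and -0.26 ± 0.09 at 80 nM (limma adjusted p = 0.037) stayed inside the fold limits. DKK2, a relative that can act as antagonist or agonist, read -3.66, -3.44 and -3.77 in untreated cells, -3.26, -3.89 and -3.42 at 8 nM and -7.18, -7.77 and -7.70 at 80 nM. The arrays at 80 nM were far below the others and not above background, which gives a level at least 5.09-fold lower than in untreated cells (limma adjusted p = 1.7e-06). With normexp the change of DKK2 was -0.94 and in the deposited log2 values -1.45. DKK4 was not above background.

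DKK3, a divergent member of the family, was the only 1 of the 30 members called at both concentrations, and in opposite directions. The probe that stood for it read -5.39, -5.08 and -5.11 in untreated cells, -3.79, -4.09 and -3.79 at 8 nM and -6.62, -6.02 and -7.26 at 80 nM. All 3 arrays at 8 nM were above every untreated array, a rise of 1.30 ± 0.27 (SE; limma adjusted p = 0.017, and 0.027 with the replicate block in the fit of the untreated and 8 nM arrays). At 80 nM it was not above background and at least 1.7-fold lower than in untreated cells (limma adjusted p = 0.0022), but with normexp the change was -0.19 (limma adjusted p = 0.095) and in the deposited log2 values -0.38, both inside the fold limit. A second DKK3 probe of the same transcript read -5.20, -5.25 and -5.37 in untreated cells, -5.27, -5.59 and -5.67 at 8 nM and -6.08, -6.92 and -6.56 at 80 nM. This second probe, above background on 1 of 3 arrays at 8 nM, gave -0.24 ± 0.20 there (limma adjusted p = 0.45), so the rise at 8 nM was seen by 1 of 2 probes, and both were lower at 80 nM. The adjusted p of the rise did not pass without untreated replicate 1, untreated replicate 3 or 8 nM replicate 3, nor with scaling to the spike-in controls.

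The Axins are scaffolds of the complex that degrades β-catenin, and AXIN2 is also a target of the pathway. AXIN1 read -0.75, -0.98 and -0.82 in untreated cells, -1.25, -1.48 and -1.31 at 8 nM and -2.07, -2.13 and -2.08 at 80 nM. The 3 groups did not overlap and AXIN1 was lower at the higher concentration. The change was -0.50 ± 0.09 at 8 nM (SE; limma adjusted p = 0.0094), inside the fold limit, and -1.24 ± 0.09 at 80 nM (limma adjusted p = 9.7e-06). With the replicate block in the fit of the untreated and 8 nM arrays, the adjusted p of AXIN1 at 8 nM was 0.057.

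AXIN2 was measured by 2 probes. The one that stood for it changed by 0.44 ± 0.11 at 8 nM (limma adjusted p = 0.036, and 0.097 with that block) and by -0.55 ± 0.11 at 80 nM (limma adjusted p = 0.0033), and it was lower at 80 nM than at 8 nM by a log2 change of -0.99 ± 0.11. The second probe of AXIN2 read -3.22, -3.49 and -3.37 in untreated cells, -3.48, -3.13 and -3.64 at 8 nM and -5.40, -5.34 and -5.63 at 80 nM. It changed by -0.06 ± 0.14 at 8 nM and by -2.10 ± 0.14 at 80 nM (limma adjusted p = 8.1e-06), so both probes were lower at 80 nM, by unequal amounts, and the rise at 8 nM was seen by 1 of them.

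All 3 TCF factors measured were lower at 80 nM, and LEF1 was not above background. TCF7L1, mostly a repressor of β-catenin targets, read -1.43, -1.49 and -1.33 in untreated cells, -1.96, -1.73 and -1.74 at 8 nM and -2.76, -2.47 and -2.51 at 80 nM. Its 3 groups did not overlap, with changes of -0.39 ± 0.11 at 8 nM (SE; limma adjusted p = 0.043, and 0.11 with the block) and -1.16 ± 0.11 at 80 nM (limma adjusted p = 3.7e-05). TCF7 changed by -0.32 ± 0.07 at 8 nM (limma adjusted p = 0.018, and 0.11 with the block) and by -0.58 ± 0.07 at 80 nM (limma adjusted p = 0.00017). At 0.671-fold TCF7 lay just outside the limit for down-regulation at 80 nM, and its second probe gave -0.80 ± 0.11 at 8 nM (limma adjusted p = 0.0036 in the fit of all probes) and -0.98 ± 0.11 at 80 nM (limma adjusted p = 0.00015). By that probe TCF7 passed the rule for down-regulation at both concentrations. It was well above background on all 3 untreated arrays, on 2 of 3 at 8 nM and on 1 of 3 at 80 nM.

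TCF7L2, the main TCF factor of the gut epithelium, read -3.73, -3.70 and -3.60 in untreated cells, -3.89, -3.98 and -4.0 at 8 nM and -4.57, -4.20 and -4.18 at 80 nM. The arrays at 80 nM were the lowest, with a change of -0.64 ± 0.11 (SE; limma adjusted p = 0.0013). A second probe of the same transcript gave -1.35 ± 0.16 at 80 nM (limma adjusted p = 0.00018), and another, which names another TCF7L2 transcript, gave -0.05 ± 0.18 (limma adjusted p = 0.84). The down-regulation of TCF7L2 was thus seen by 2 of its 3 probes, and for the probe that stood for the gene it was -0.33 with normexp and -0.48 in the deposited log2 values, inside the fold limit.

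**Figure D3:**
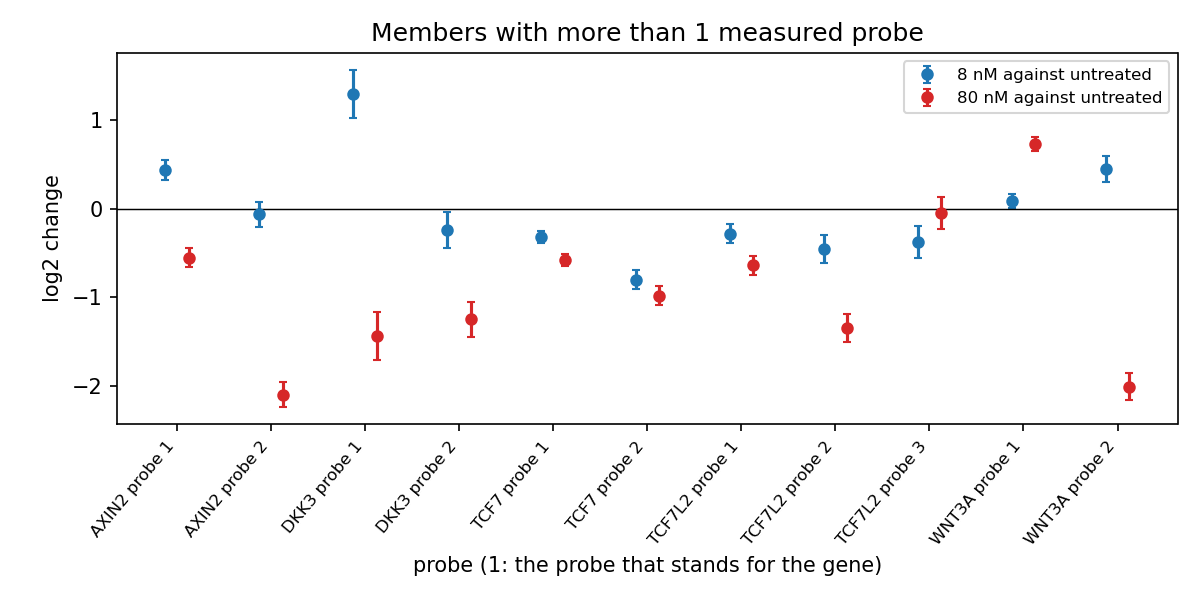
Log2 change (y axis) of each probe of the 5 members with more than 1 measured probe (x axis, probe 1 being the one that stood for the gene); blue points are 8 nM and red points 80 nM, both against untreated cells with 3 arrays per group, and bars are standard errors from limma. The red points of the WNT3A probes lie on opposite sides of 0 (0.73 and -2.01), and those of AXIN2 differ in size (-0.55 and -2.10).

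Other genes of the pathway, taken from lists by role, were read in the same fits. As a reference for their counts, the rule called 18.8% of all 21832 genes higher and 16.3% lower at 80 nM. The median log2 change of that full set was 0.08. At 8 nM the shares of the full set were 4.25% higher and 2.84% lower. Whether any of these lists departs from the full set was not tested. Among secretion factors and other extracellular regulators, 9 of 13 were measured, and at 80 nM 3 were up-regulated and 4 down-regulated, with a median of -0.57. WLS, the carrier that brings WNT ligands to the cell surface, read -6.32, -6.45 and -6.38 in untreated cells, -5.79, -6.48 and -5.25 at 8 nM and -0.80, -0.93 and -0.74 at 80 nM. WLS was above background on no untreated array, on 1 at 8 nM and on all 3 at 80 nM, where its level was at least 38-fold higher than in untreated cells (limma adjusted p = 9.3e-07). A second WLS probe, above background on 3 of 9 arrays, had a fitted change of 4.16 at 80 nM.

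KREMEN1, a receptor for Dickkopf proteins, rose by 1.20 ± 0.07 at 80 nM (SE; limma adjusted p = 3.7e-06), and WIF1, a secreted WNT inhibitor, by 0.70 ± 0.08 (limma adjusted p = 0.00016). The surface proteoglycans GPC3 and GPC4 changed by -2.71 ± 0.10 (limma adjusted p = 3.1e-07) and -2.37 ± 0.13 (limma adjusted p = 2.5e-06). A second GPC3 probe, above background on 6 of 9 arrays, had a fitted change of -5.97. FRZB, a secreted relative of the Frizzled receptors, was at least 4.48-fold lower at 80 nM (limma adjusted p = 8.6e-05). The fourth gene down-regulated was KREMEN2, with -0.70 ± 0.13. No gene of this list was called at 8 nM.

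Of the genes of receptor turnover and alternative receptors, 5 of 6 were measured, with 1 up-regulated and 2 down-regulated at 80 nM and a median of -0.37. The pseudokinase PTK7, a co-receptor, rose by 0.81 ± 0.12 (SE; limma adjusted p = 0.00056). ZNRF3, a ligase that removes Frizzled receptors, changed by -1.58 ± 0.11 (limma adjusted p = 7.1e-06), whereas another ZNRF3 probe gave 0.01. RNF43, its relative, was not above background at 80 nM and at least 1.36-fold lower than in untreated cells (limma adjusted p = 0.021), a bound inside the fold limit. None of these 5 was called at 8 nM.

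In the cytoplasmic and nuclear core of the pathway, 26 of 27 genes were measured, with 2 up-regulated and 7 down-regulated at 80 nM and a median of -0.19. DVL3, which relays the signal of Frizzled receptors, rose by 1.39 ± 0.10 (SE; limma adjusted p = 1.2e-05), and CTNNB1, the gene of β-catenin, by 0.63 ± 0.15 (limma adjusted p = 0.0064). The co-repressors TLE3 and CTBP2 fell, with changes of -2.28 ± 0.09 (limma adjusted p = 5e-07) and -1.57 ± 0.13 (limma adjusted p = 2.2e-05). TLE1, a relative of TLE3, changed by -2.68 ± 0.14 by the probe that stood for it (limma adjusted p = 1.7e-06) and by 0.63 by another probe. CTBP2 was the 1 gene of the core called at 8 nM, with -0.58 ± 0.13 (limma adjusted p = 0.022).

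Of the genes of planar cell polarity, 10 of 11 were measured, with none up-regulated and 3 down-regulated at 80 nM and a median of -0.46. PRICKLE1, a cytoplasmic component of that branch, was at least 6.16-fold lower than in untreated cells (limma adjusted p = 1.3e-06). The cadherin CELSR1 changed by -0.98 ± 0.17 (SE; limma adjusted p = 0.0012), while its other probes gave -1.35 and 0.44. DAAM1, a formin, fell by a log2 change of -0.83 ± 0.18 (limma adjusted p = 0.0041). At 8 nM, VANGL2, a membrane protein of the same branch, was up-regulated by 0.88 ± 0.11 (limma adjusted p = 0.0023), and CELSR1 was down-regulated only without adjustment (limma adjusted p = 0.054). VANGL2 and these 8 nM values were picked after they had been seen.

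Of the known β-catenin targets outside the rule, 12 of 15 were measured, with 4 up-regulated and 5 down-regulated at 80 nM and a median of -0.21. BAMBI, a pseudoreceptor of TGF-β signaling, was not above background at 8 nM. It was at least 1.31-fold lower there than in untreated cells (limma adjusted p = 0.0082), a bound inside the fold limit. At 80 nM BAMBI rose by 1.85 ± 0.14 (SE; limma adjusted p = 1.1e-05), from an untreated level at the limit of detection (-5.52, with 2 arrays above background). TNFRSF19 and the adhesion receptor CD44 rose at 80 nM by 1.71 ± 0.38 (limma adjusted p = 0.0049) and 1.07 ± 0.20 (limma adjusted p = 0.0022), both from levels at the limit of detection. The transcription factor SP5 was at least 1.53-fold lower at 80 nM (limma adjusted p = 0.0012), and the inhibitor NKD2 changed by -1.34 ± 0.08 (limma adjusted p = 2.7e-06), in addition to ZNRF3. The remaining calls of this list at 80 nM were NKD1, at 0.98 ± 0.12, MYC, at -1.11 ± 0.07, and RNF43. BAMBI, TNFRSF19 and CD44 passed the filter only through the 80 nM arrays, and SP5 and RNF43 only through groups in which they were higher. The counts of this list are therefore no measure of direction. Of its called genes above background on all 9 arrays, NKD1 was higher at 80 nM. MYC, NKD2 and, by the probe that stood for it, ZNRF3 were lower. At 8 nM the calls of this list were BAMBI and, without adjustment, TNFRSF19, both lower.

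Scaled to the spike-in controls, WIF1 (0.42), PTK7 (0.53) and CTNNB1 (0.35) were no longer called at 80 nM, and the adjusted p did not pass for NKD1 (0.70, limma adjusted p = 0.055) and CD44 (0.79, limma adjusted p = 0.087). In planar cell polarity 8 genes were then down-regulated in place of 3, while the share of all genes was 26.2% in place of 16.3%. With normexp, CTNNB1 (0.58), CD44 (0.38), NKD1 (0.50), DAAM1 (-0.26), RNF43 (-0.06) and SP5 (-0.44) fell short of the rule. Of the genes with a bound, 3 kept their call with smaller changes, WLS at 2.95, FRZB at -0.76 and PRICKLE1 at -1.32. At 8 nM, CTBP2 was called neither with normexp (-0.53) nor when scaled to the spike-in controls (-0.50), and BAMBI was not called with normexp (-0.13).

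**Figure D4:**
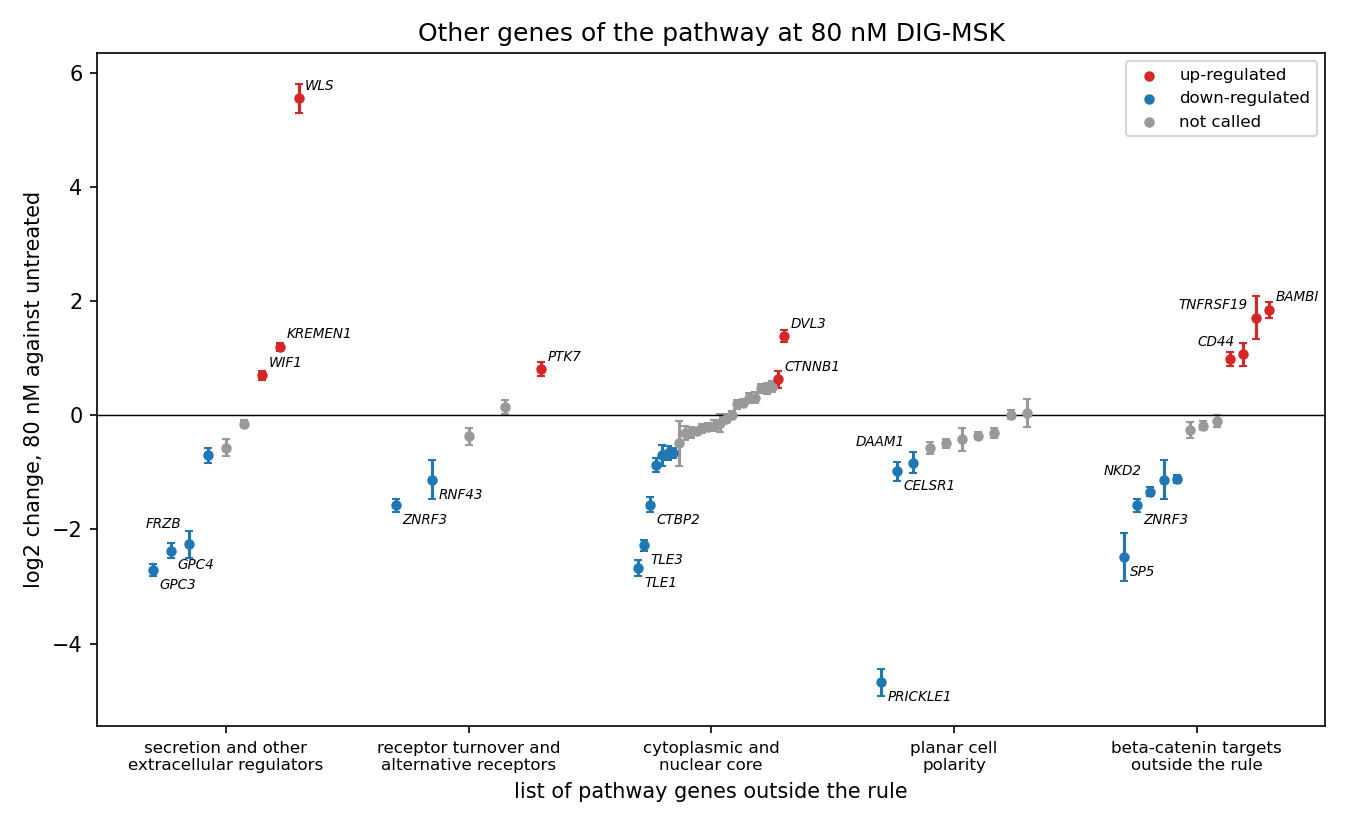
Log2 change at 80 nM against untreated cells (y axis) of the measured genes of 5 further lists of the pathway (x axis), with bars for the standard error from limma over 3 arrays per group; red points are up-regulated, blue points down-regulated and gray points not called, and the largest changes of each list are named. WLS, not above background in untreated cells, has a fitted value of 5.55 (bound 5.25), and PRICKLE1, not above background at 80 nM, one of -4.68 (bound 2.62 lower), while FRZB, RNF43 and SP5 are also fitted values of probes not above background at 80 nM. In the picture every list but planar cell polarity has both red and blue points; ZNRF3 and RNF43 are on 2 lists.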

How the data were processed

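Expression was measured on 9 Agilent SurePrint G3 arrays of a single color, 3 per group, and groups and replicate numbers were taken from the labels. The authors obtained spot intensity values with Agilent's Feature Extraction software (10.7.3.1), and the deposited processed intensity is background-corrected but not scaled between arrays. A deposited table of probe-level log2 values followed the log2 median spot signal (r between 0.99848 and 0.99981; column medians between 6.60 and 6.61) and was used as an alternative; its centring step is not given in the sources used here. The methods name a lowess step, which has no second channel to act on here and was not applied, and the Low Input Quick Amp kit, whereas the labels name the Fair Play III kit.

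Spots of controls and outlier spots were removed, replicate spots of a probe averaged, and log2 levels were set relative to the 75th percentile of each array. RefSeq (GRCh38.p14) gave a gene name to 25715 of the 27245 probes that carry a RefSeq accession. Probes detected well above background in every array of 1 group or more were kept (26457 of 42405), no gene probe was saturated, and the number of arrays limits the precision. The probe with the highest mean stood for its gene. Fits used limma 3.58.1 in R 4.3.3 (lmFit, contrasts and eBayes) on all 9 arrays, with Benjamini-Hochberg adjustment over 21832 genes, and were tested on simulated data. All adjusted p-values are from these fits unless another fit is named.

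Values on every array are given for members called with an adjusted p under 0.05 against untreated cells, the other probes of a gene where they differ in sign or by over 1.5-fold, and, of each further list, at most the 3 largest rises and falls so called at 80 nM. Values on every array of WLS, of FZD7 and of the second probes were added after they had been seen. The members and lists were chosen with earlier results of these data known. Deviations of arrays with the same replicate number correlated weakly between untreated and 8 nM cells (0.114, 0.101 and 0.163). Between untreated and 80 nM cells the values were -0.0088, -0.0821 and -0.00307, and between 8 nM and 80 nM cells 0.0155, -0.124 and -0.0382. Values of this size do not settle whether replicate numbers mark pairs. Alternatives were normexp correction (offset 50), run on median spot signals instead of the mean signals that were planned, quantile, median and spike-in scaling (10 probes), the deposited log2 values, other filters, the mean of a gene's probes, only the groups compared, the replicate block, and each array left out; the block with only the untreated and 8 nM arrays was added after seeing the data.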

Additional observations from a re-analysis of the deposited data

Results flagged for a closer look

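Among the 22 members that were not tested, 3 had a signal well above background at 80 nM on some arrays and on none of the untreated ones. For SFRP1, a secreted WNT antagonist, it was 2 arrays, with levels of -6.16, -5.65 and -5.64 at 80 nM and of -6.78, -6.64 and -6.74 in untreated cells. For the ligand WNT1 it was 1 array, with levels of -5.49, -6.78 and -6.55 at 80 nM and of -7.22, -7.21 and -8.04 in untreated cells, and a second WNT1 probe was above background nowhere. For the ligand WNT8A it was 1 array, with levels of -4.19, -7.99 and -7.56 at 80 nM and of -7.76, -7.98 and -7.90 in untreated cells. The negative controls were lower on the slide that held the 80 nM arrays, and the part of the slide in these signals was not tested.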

How the results depend on the processing

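The number of members down-regulated at 80 nM was 13 of 30 in the main analysis and 6 of 23 with only genes above background on all 9 arrays. The shares of all genes were 16.3% and 13.9%. So was the number lower at 80 nM than at 8 nM (13 and 6), against 14.2% and 11.9% of all genes. This filter removes 7 of these genes. With the mean of a gene's probes in place of 1 probe, 16 of 30 members were down-regulated at 80 nM, against 16.1% of all genes. The number up-regulated at 80 nM, 3, became 1 with normexp or spike-in scaling and 6 of 52 without a filter. The share of all genes was 18.8% in the main analysis and, in that order, 10.6%, 10.2% and 14.8%. The number higher at 80 nM than at 8 nM, 2, became 1 with normexp, median scaling, spike-in scaling, the deposited log2 values or the mean of the probes, and 5 of 52 without a filter. Here the share of all genes was 19.5% in the main analysis and, in that order, 9.64%, 15%, 7.99%, 12.1%, 19.5% and 15.5%. At 8 nM, 1 up-regulated member became 3 without a filter and 0 with only genes above background on all 9 arrays or the mean of the probes, and 0 down-regulated members became 1 without a filter. Of all genes, 4.25% were up-regulated in the main analysis and, in that order, 3.36%, 3.67% and 4.11%. Down-regulated were 2.84% in the main analysis and 2.95% without a filter. The causes were not tested beyond the genes that each filter adds or removes.

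With each array left out in turn, 1 member was up-regulated and 0 to 1 down-regulated at 8 nM (1 without untreated replicate 1 or 3), 2 to 4 up-regulated and 13 to 14 down-regulated at 80 nM, and 2 to 4 higher (4 without 8 nM replicate 3) and 12 to 14 lower at 80 nM than at 8 nM. Of all genes, 4.2% to 4.53% and 2.13% to 5.13% were then called at 8 nM, and 18.1% to 18.9% and 15.6% to 17.1% at 80 nM. Between the concentrations it was 17.8% to 20.6% and 13.7% to 15.1%.

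With the replicate number as a block on all 9 arrays, the calls numbered 1 and 0 at 8 nM, 3 and 13 at 80 nM and 2 and 13 between the concentrations, as without it. The shares of all genes were, in that order, 4.27% and 2.79%, 18.7% and 16.2%, and 19.4% and 14.2%. Of the 7 members with an adjusted p under 0.05 at 8 nM, 5 passed with that block, and 1, DKK3, with the block on only the untreated and 8 nM arrays.

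Of changes that had passed the test, scaling to the spike-in controls turned the sign of LRP5 (-0.03) and WNT6 (-0.10) between the concentrations and of WNT6 at 80 nM (-0.02) and gave 0.00 for WNT3 between the concentrations, none of them passing there. It turned 8 further signs, none of a change that passed in either analysis. The mean of the probes turned WNT3A to -0.64 at 80 nM and to -0.91 between the concentrations. With normexp, DKK3 (-0.19), WNT5B (-0.42) and TCF7L2 (-0.33) lost their call at 80 nM. Levels near background set the limit for WNT5A, WNT5B, WNT11, DKK2, DKK3 and RSPO2 at 80 nM, for which bounds are given.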
